A study of Homo sapiens with 9 samples.

Results

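The genes described here set, remove or read out cytosine methylation or belong to the group of epigenetic regulators that are recurrently mutated in myeloid leukemia: DNMT1, UHRF1, DNMT3A, DNMT3B, TET1, TET2, TET3, IDH1, IDH2 and ASXL1. They were chosen by name and function, with earlier results of these data known. They are 10 of the 20162 protein-coding genes of the GENCODE annotation on hg19 outside the mitochondrial chromosome. Their promoters were read for H3K4me3, a trimethyl mark on histone H3 found at active gene starts, by CUT&RUN, in which a nuclease tethered by an antibody cuts out the marked DNA for sequencing. The cells were HEL, an established human erythroleukemia line, transduced with lentiviral CRISPR vectors. The 4 groups were a non-targeting control guide (NTC, 3 libraries) and knockout (KO) of METTL3, METTL14 or WTAP (2 libraries each), which encode subunits of the m6A RNA methyltransferase. The comparison asks what the loss of each subunit does to promoter H3K4me3. The sources used here do not say whether the knockout cells were clones or pools, or whether libraries of a group came from separate cultures, so that the p-values below measure the spread between these libraries, which may be technical.

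DNA methylation at CpG sites is copied after replication by DNMT1, which UHRF1 brings to hemimethylated DNA, and is laid down anew by DNMT3A and DNMT3B. The TET enzymes oxidize 5-methylcytosine, a step towards its removal, and need 2-oxoglutarate, the product of IDH1 and IDH2, whose mutant forms in leukemia make 2-hydroxyglutarate, an inhibitor of TET enzymes. ASXL1 is a partner of the deubiquitinase BAP1. H3K4me3 and DNA methylation tend to exclude each other at CpG-rich promoters, and loss of DNMT3A, TET2 or ASXL1 function is a frequent early event in clonal hematopoiesis and myeloid leukemia.

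Each library was represented by a list of its own peaks, each with a position and a calibrated signal, which is summed coverage scaled by a yeast spike-in and not a read count. A gene was called marked if some peak came within 1 kb of an annotated start, and its level was the signal of the largest such peak. All 10 genes had such a peak in at least 1 library, and all of them in at least 2. The lists hold 99358 peaks, all of them between 150 and 2000 bp wide, and give no fragment totals, so the depth of each library is unknown. The share of all protein-coding genes marked was 46.8 to 47.9% in NTC libraries, 33.5 and 34.6% in METTL3-KO, 13.2 and 21.1% in METTL14-KO and 11.4 and 12.9% in WTAP-KO. The smallest step between low signal values was 1.14 to 1.32 in the NTC libraries, 0.461 and 1.07 in METTL3-KO and 0.32 to 0.44 in the METTL14-KO and WTAP-KO libraries. Signals divided by this step were fitted too, and are given below for DNMT3B and ASXL1, whose calls they changed. Of 9 erythroid and megakaryocytic markers, between 6 and 9 were marked in the NTC libraries, 5 in each METTL3-KO library and 1 in each METTL14-KO and WTAP-KO library. GATA1, the defining erythroid factor, was marked in all 3 NTC libraries (2638, 2788 and 2982) and in no KO library. Of 5 lymphoid markers 2 were marked in every NTC library and none in a KO library, and of 5 epithelial and fibroblast markers 1 was, COL1A1. A peak at a target gene's start does not check its knockout. METTL3 kept a signal of 1095 and 915 in the METTL3-KO libraries against 6515 to 10067 in NTC, METTL14 had no peak in the METTL14-KO libraries and WTAP had none in the WTAP-KO libraries or in 1 NTC library.

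The sequences below are shown because they lie at or beside places where the H3K4me3 peaks of these genes were kept, moved or lost. They are hg19 reference sequence on the strand of the gene, 5′ to 3′, outside the annotated exons of the gene, with each CpG, the target of the methyltransferases, in capitals. The first is the part nearest the start, 300 bases, of the interval covered by the ASXL1 peak of all 9 libraries (chr20:30945482-30945781, plus strand). The second is the interval upstream of TET3 that a peak covered in all 9 libraries (chr2:74208445-74208635, plus strand), which lies in an exon of the antisense-strand lncRNA DGUOK-AS1. The third is the interval downstream of the DNMT3B start that was covered in 5 of the 6 KO libraries (chr20:31351328-31351476, plus strand). The others lie just upstream of the main starts of DNMT1 (chr19:10305812-10306111, minus strand), the internal starts of DNMT3A (chr2:25475181-25475480, minus strand) and the start of TET1 (chr10:70319794-70320093, plus strand). The DNMT3A stretch lay whole within the NTC_3 peak only, as the NTC_1 and NTC_2 peaks ended inside it, at 25475286 and 25475291. The DNMT1 stretch lay whole within the NTC_1 peak only, as the NTC_2 and NTC_3 peaks ended at 10306058.
ASXL1, kept in all libraries: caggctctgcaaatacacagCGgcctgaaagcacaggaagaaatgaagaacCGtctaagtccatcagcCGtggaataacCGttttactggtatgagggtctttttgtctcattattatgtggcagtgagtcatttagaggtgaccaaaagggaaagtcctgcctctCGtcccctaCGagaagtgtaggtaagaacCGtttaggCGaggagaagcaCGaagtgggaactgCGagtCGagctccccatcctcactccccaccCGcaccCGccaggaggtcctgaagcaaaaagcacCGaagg
TET3 upstream, kept in all libraries: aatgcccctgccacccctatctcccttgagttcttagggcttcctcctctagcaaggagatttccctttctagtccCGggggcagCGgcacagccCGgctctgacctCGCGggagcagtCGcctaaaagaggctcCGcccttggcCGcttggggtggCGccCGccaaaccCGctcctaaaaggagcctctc
DNMT3B downstream, KO libraries: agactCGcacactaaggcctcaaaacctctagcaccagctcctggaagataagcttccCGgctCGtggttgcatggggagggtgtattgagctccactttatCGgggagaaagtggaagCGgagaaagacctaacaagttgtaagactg
DNMT1 upstream: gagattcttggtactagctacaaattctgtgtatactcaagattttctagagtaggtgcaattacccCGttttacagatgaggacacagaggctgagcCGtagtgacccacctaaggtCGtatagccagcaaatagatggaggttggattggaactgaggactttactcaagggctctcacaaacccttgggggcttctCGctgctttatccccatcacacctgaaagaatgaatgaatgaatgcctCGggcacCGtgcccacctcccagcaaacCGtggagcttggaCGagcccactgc
DNMT3A internal start: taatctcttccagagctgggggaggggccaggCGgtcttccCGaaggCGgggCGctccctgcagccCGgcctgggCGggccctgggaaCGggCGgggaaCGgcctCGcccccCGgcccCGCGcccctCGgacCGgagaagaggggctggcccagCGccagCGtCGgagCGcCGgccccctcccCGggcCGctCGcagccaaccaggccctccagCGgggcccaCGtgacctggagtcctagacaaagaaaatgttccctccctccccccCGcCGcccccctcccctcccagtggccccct
TET1 upstream: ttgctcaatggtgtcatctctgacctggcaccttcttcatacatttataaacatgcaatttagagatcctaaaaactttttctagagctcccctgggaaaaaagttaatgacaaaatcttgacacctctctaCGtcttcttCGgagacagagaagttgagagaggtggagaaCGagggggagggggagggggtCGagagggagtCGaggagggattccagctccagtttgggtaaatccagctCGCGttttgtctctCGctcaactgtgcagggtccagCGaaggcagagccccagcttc

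These windows differed in their CpG content. The DNMT3A stretch held 27 CpG in 300 bases, ASXL1 14, TET1 9 and DNMT1 8, while the downstream DNMT3B interval held 5 in 149 bases and the TET3 interval 11 in 191 bases. Over another window, the 300 bases before the canonical start, the 10 genes had a median of 27.5 CpG against 21 over 19862 protein-coding promoters. TET1 was the poorest with 9, a number that 25.7% of promoters fell below, and DNMT3A the richest with 44, above 95.5% of promoters. The GC box GGGCGG was present on either strand in 7 of the 10 promoters and in 60.9% of all, the CCAAT box in 3 and in 37.8%, and TATAAA in 1, that of TET1, and in 11.0%. The GATA-type word AGATAA was found in none of these 10 promoter windows and in 8.23% of all, which says only that these letters are not in the 300 bases before the canonical starts.

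Of the 10 genes, 8 carried a peak in all 3 NTC libraries, and ASXL1 was the one that also carried a peak in all 6 KO libraries. Per library, 9, 10 and 8 of the genes were marked in NTC, 7 and 5 in METTL3-KO, 2 and 2 in METTL14-KO, and 1 and 3 in WTAP-KO. The group means were 9 ± 1 (SD, n = 3), 6 ± 1.41 (n = 2), 2 ± 0 (n = 2) and 2 ± 1.41 (n = 2). Among those 8 genes, 3 lacked a peak in both METTL3-KO libraries, against 46.3% of all protein-coding genes with peaks throughout NTC. The count was 6 in METTL14-KO, against 73.3% of all genes, and 6 in WTAP-KO, against 84.9%. With 8 genes, these counts are close to the shares over all genes. Widening the window to 5 kb gave 2 genes without a peak in METTL3-KO (43.6% of all), 5 in METTL14-KO (70.3%) and 5 in WTAP-KO (82%), the added gene in each case being TET3.

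**Figure D1:**
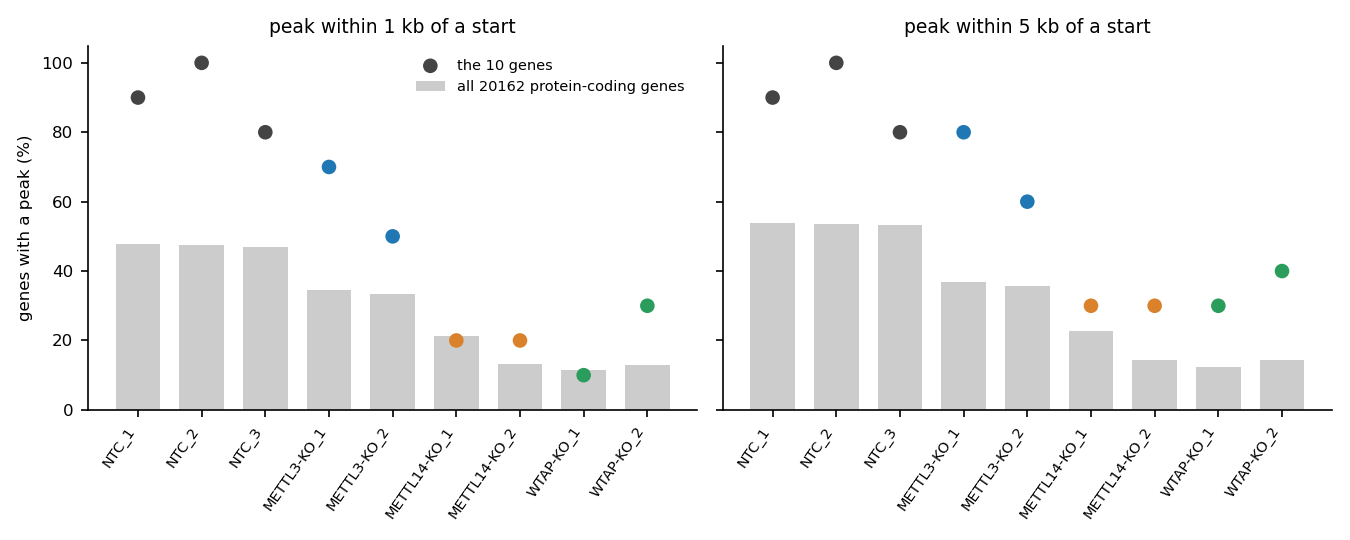
Percentage of genes with an H3K4me3 peak within 1 kb (left) and 5 kb (right) of a start in each of the 9 libraries, for all 20162 protein-coding genes (grey bars) and for the 10 genes (points, coloured by group). Within 1 kb the points lie above the bars in the NTC and METTL3-KO libraries and just below them in METTL14-KO_1 and WTAP-KO_1.

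Tested with limma over 12037 protein-coding genes, 8 of the 10 genes were lower in the mean of the KO groups than in NTC at an adjusted p under 0.05, and 73% of all tested genes were. In METTL3-KO 7 of 10 genes were lower, against 60.9% of all. In METTL14-KO 8 were lower, against 68.8%, and in WTAP-KO 8, against 69.7%. No member was higher than NTC in any of these contrasts. The median difference of the 10 genes for the mean of the KO groups was −5.48 on the log2(signal + 30.1) scale, beside −5.30 over all genes tested, so that the fall at these genes was close to that of all genes. Once each library was centred on the genes marked in all 9 libraries, the medians were −2.64 and −2.46 and 6 of the 10 genes were called lower in each of these 4 contrasts. Of all 12037 genes, 7122 were then lower in the mean of the KO groups, 5683 in METTL3-KO, 6506 in METTL14-KO and 6673 in WTAP-KO. Centring also shifted the values of genes without a peak. Within 5 kb, 8 of 10 genes were lower in the mean of the KO groups (76.3% of all), 7 in METTL3-KO (62.7%), 8 in METTL14-KO (72.3%) and 8 in WTAP-KO (73.6%). By position of the single values, 7 of the 10 genes had all 6 KO libraries below all 3 NTC libraries, as did 68.3% of tested genes. DNMT3B, TET2 and IDH1 were the other three.

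**Figure D2:**
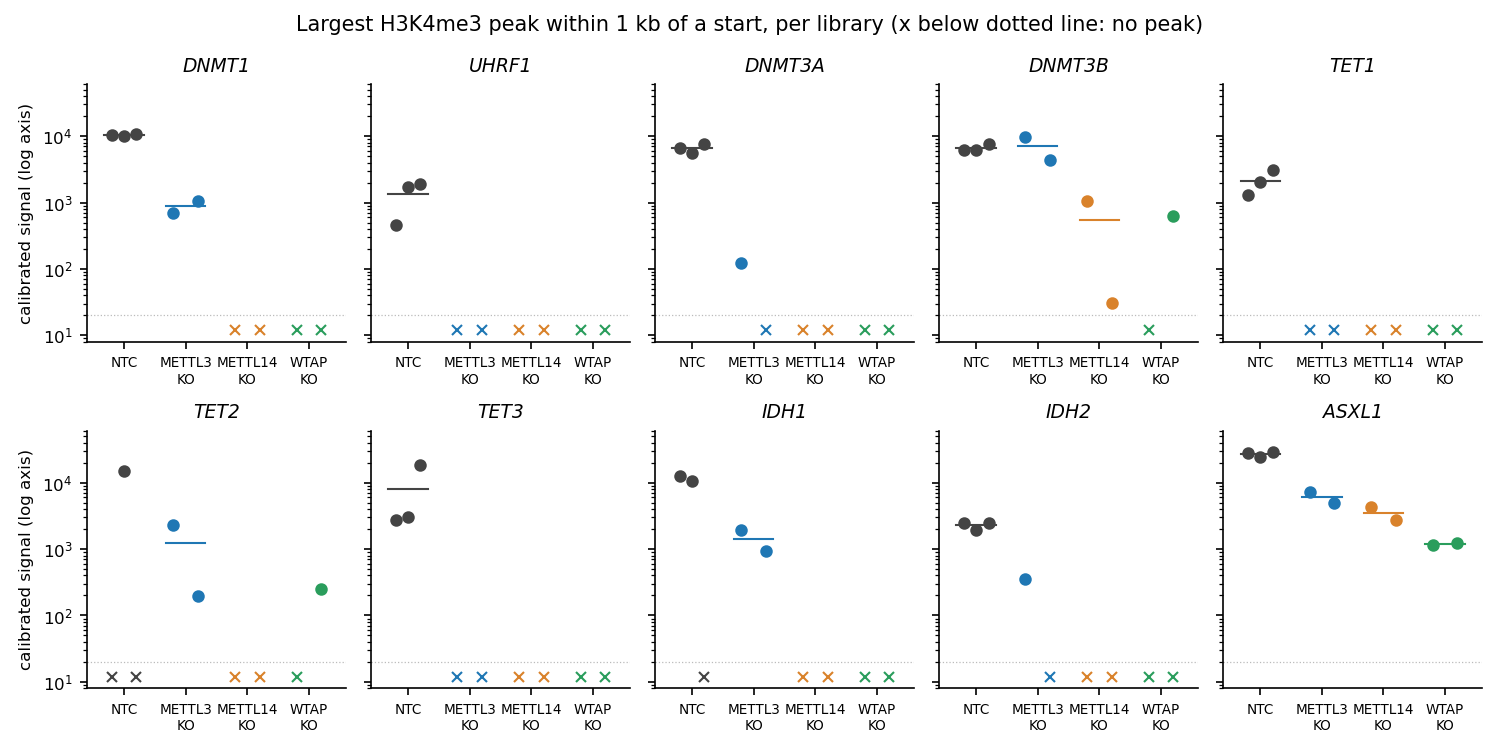
Calibrated signal (log axis) of the largest H3K4me3 peak within 1 kb of a start for each of the 10 genes, 1 point per library, with the group mean as a line where every library of the group had a peak and a cross below the dotted line where a library had none. ASXL1 has a point in all 9 libraries, while TET1, TET3 and UHRF1 have points in the NTC libraries only.

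The maintenance pair, DNMT1 and UHRF1, had no peak in METTL14-KO or WTAP-KO, and UHRF1 had none in METTL3-KO either. DNMT1, on chr19 with its canonical start at 10305629, had signals of 10261, 10174 and 10846 in the NTC libraries and 705 and 1069 in METTL3-KO, and no peak in METTL14-KO or WTAP-KO. The METTL3-KO mean was 8.51% of the NTC mean, a difference of −3.54 ± 0.28 (SE) on the log2 scale (limma, adjusted p = 3.34e-05), and the groups did not overlap. The adjusted p was 3.70e-07 in METTL14-KO and in WTAP-KO, where the size of the fitted change depends on the pseudocount because those groups are at 0. DNMT1 also had a peak at a second set of starts further upstream, at 10341949 to 10341962, near the start of S1PR2 and MIR4322. There the NTC signals were 5977, 8698 and 8253 and the METTL3-KO signals 705 and 714, so the METTL3-KO_1 value above belongs to those starts, and the starts around the canonical one held 690. The NTC peaks at the canonical starts were 1604 to 1673 bp wide and covered 1174 to 1224 bp downstream of the start, while in METTL3-KO the mark was split into a peak of 566 or 628 bp over the start and a smaller one beyond it.

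UHRF1, which reads hemimethylated CpG, was among the weakest of the 10 genes. Its signals were 462, 1745 and 1884 in the NTC libraries, with the largest peak 1013 to 1159 bp downstream of the canonical start at chr19:4909513, near other annotated starts. No KO library had a peak. The limma adjusted p was 1.95e-04 in METTL3-KO, 1.73e-04 in METTL14-KO and 1.67e-04 in WTAP-KO. The unadjusted limma p was 8.51e-05 in each group, because no KO group had a peak and the fit used a shared spread for all groups. The spread within UHRF1 came from the NTC libraries alone. Its mean NTC signal exceeded or equalled that of 17.5% of genes marked in NTC, and of the 1057 genes in its decile of NTC signal 14.9% kept a peak in METTL3-KO, 6.43% in METTL14-KO and 4.07% in WTAP-KO.

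The de novo enzymes differed from each other. DNMT3A, on the minus strand of chr2, was marked at internal starts between 25475001 and 25475180, the position of its short transcripts, with signals of 6716, 5570 and 7575 in NTC. METTL3-KO_1 kept a peak of 124 there, and the other 5 KO libraries had none. The KO values lay below all NTC values, and limma gave adjusted p = 9.83e-05 in METTL3-KO, 3.62e-05 in METTL14-KO and 3.52e-05 in WTAP-KO. At the starts of the long transcripts, 25564794 to 25565459, where CpG density was the highest of the 10 promoters, only NTC_2 had a peak, of 305. A further peak 46549 to 46550 bp downstream of the canonical start, inside the gene, was called in the 3 NTC libraries (954, 1360 and 1344) and in no KO library.

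DNMT3B, on the plus strand of chr20 with its canonical start at 31350191, had peaks in 5 of 6 KO libraries within 1 kb, at another place than in NTC. Its signals were 6219, 6148 and 7577 in NTC, 9867 and 4345 in METTL3-KO, 1055 and 31.2 in METTL14-KO, and none and 622 in WTAP-KO. METTL3-KO overlapped NTC and the other groups lay below both. The difference between METTL3-KO and NTC was −0.01 on the log2 scale with a 95% interval from −3.98 to 3.96 (limma, adjusted p = 1.00), which leaves the size of any change at this gene unresolved. METTL14-KO and WTAP-KO were called lower (adjusted p = 0.0360 and 0.0183). The METTL14-KO call was lost on leaving out any 1 of the 3 NTC or 2 METTL3-KO libraries (limma, adjusted p = 0.0547 to 0.0839) or METTL14-KO_2 (0.211). The WTAP-KO call was lost without NTC_3 (0.0502) and without WTAP-KO_1 (0.111), and neither call held after centring (0.307 and 0.234) or division by the step (0.188 and 0.0944).

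The peaks behind these values did not lie at the same place. In the NTC libraries the peak began at positions −1435 to −1328 relative to the start and ended at −30 to −28. In METTL3-KO it ran from 568 bp to 2207 and 2253 bp downstream and was 1640 and 1686 bp wide. In METTL14-KO and WTAP-KO smaller peaks lay at 1100 to 1456 bp and at 1702 to 2019 bp downstream, the second beyond the 1 kb window and the only one in WTAP-KO_1. No NTC list holds a peak in that downstream stretch and no KO list holds one upstream. The lists hold no peak wider than 2000 bp, and whether a wider downstream peak was left out of the NTC lists was not tested.

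**Figure D3:**
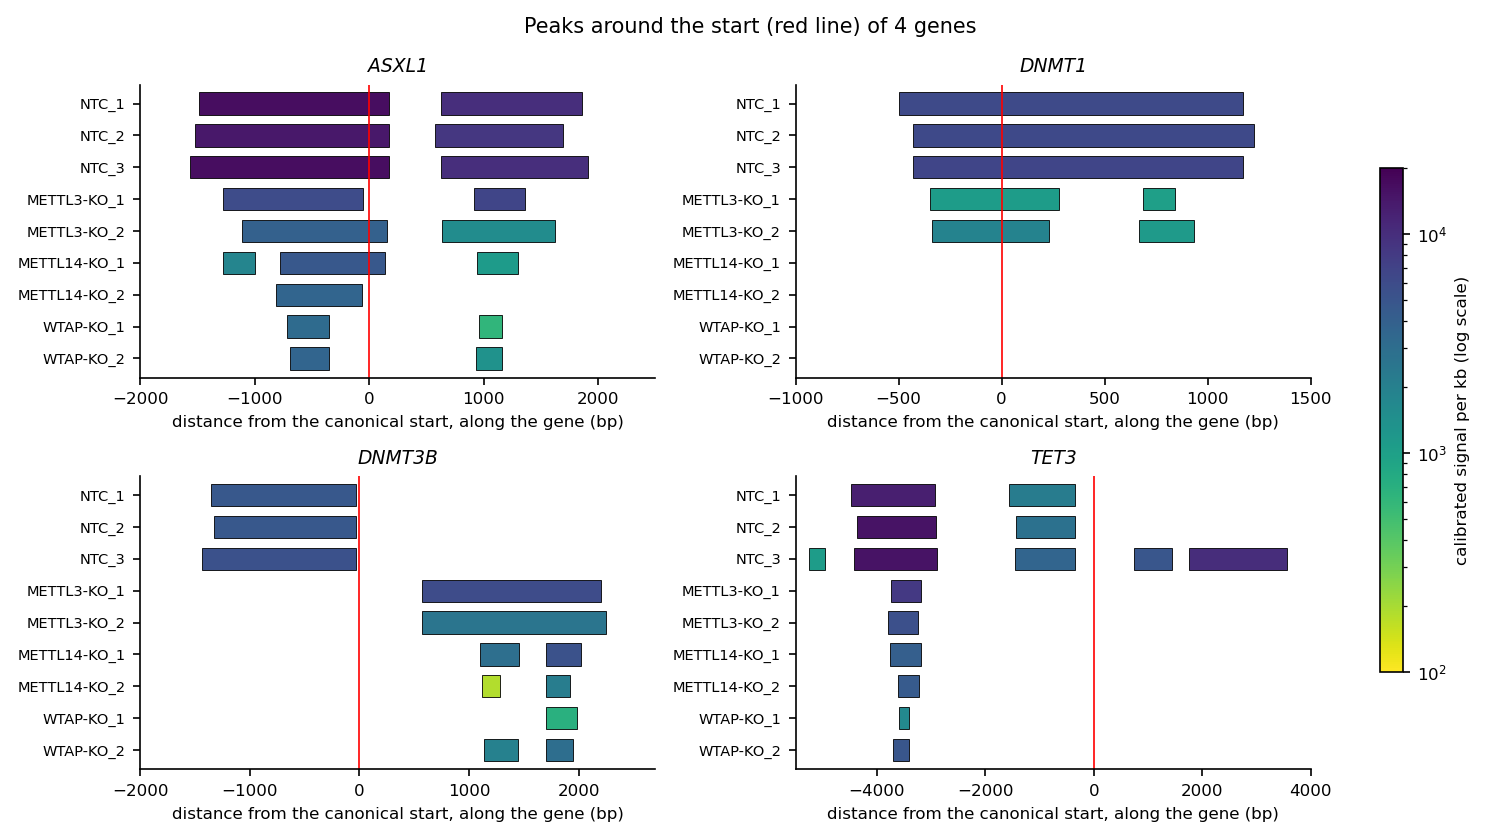
Position of each peak relative to the canonical start (red line, distance in bp along the gene) of ASXL1, DNMT1, DNMT3B and TET3, 1 row per library, coloured by calibrated signal per kb on a log scale. DNMT3B peaks lie upstream of the start in the NTC libraries and downstream in the KO libraries, and the strong TET3 peak upstream of the start has a counterpart in all 9 rows.

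Of the TET genes, only TET2 was marked within 1 kb in any KO library. TET1, a single-start gene on chr10 (70320094), had signals of 1300, 2020 and 3113 in NTC and no KO peak within 1 or 5 kb. The groups did not overlap (limma, adjusted p = 5.36e-06 in METTL3-KO, 4.64e-06 in METTL14-KO and 4.60e-06 in WTAP-KO). With no KO peak, the spread within TET1 came from the NTC libraries alone, and the unadjusted limma p was 1.48e-06 in each group. A separate site inside the gene, from 39878 bp downstream of the start in NTC_1, was stronger than the start in NTC, with 4496, 4222 and 4150, and it kept a peak of 678 and 227 in METTL3-KO, with none in METTL14-KO or WTAP-KO.

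TET2, the TET gene most often mutated in myeloid disease, was marked in only 1 NTC library, NTC_2, with a signal of 15038 from a peak of 1999 bp. METTL3-KO had 2273 and 200, WTAP-KO_2 had 250, and the other 5 libraries had no peak. The groups overlapped, and no contrast against NTC passed the test (limma, adjusted p = 0.640, 0.379 and 0.705 for METTL3-KO, METTL14-KO and WTAP-KO). The NTC_2 peak is 1 bp under the widest peak that any list holds, and whether wider peaks were left out of the other NTC lists was not tested. TET2 and IDH1 were the 2 of the 10 genes with a peak in a KO library and in at most 2 NTC libraries, a pattern of 25.8% of tested genes.

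TET3, on the plus strand of chr2 (74212037), had signals of 2730, 3025 and 18557 within 1 kb in NTC and none in KO. The largest value came from a second start at 74213653 in NTC_3 alone, and at the first start the NTC signals were 2730, 3025 and 4092. All KO libraries lay below (limma, adjusted p = 1.82e-04 in METTL3-KO, 1.61e-04 in METTL14-KO and 1.55e-04 in WTAP-KO). Here too the spread came from the NTC libraries alone, and the unadjusted limma p was 7.83e-05 in each group. Between 5 and 6 peaks inside the gene, more than 5 kb from any start, were called in each NTC library and none in a KO library. Upstream of the first start, within 5 kb and near the start of DGUOK-AS1 on the other strand, the strongest peak of the region was present in all 9 libraries, at positions −4483 to −2895 in NTC. Its signals were 19805, 22317 and 23855 in NTC, 4712 and 3076 in METTL3-KO, 2357 and 1701 in METTL14-KO, and 316 and 1443 in WTAP-KO. The group means were 17.7%, 9.23% and 4.0% of NTC, and this fall was called in each group with the 5 kb window (limma, adjusted p = 0.00858, 0.00179 and 2.74e-04). The peak was 1451 to 1555 bp wide in NTC and 191 to 573 bp in KO libraries (exact permutation test, two-sided, 3 against 6 libraries, p = 0.0238, the smallest this design allows, and 0.0238 after adjustment over 2 such tests). TET3 and DGUOK-AS1 cannot be told apart as the gene that this peak belongs to.

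The isocitrate dehydrogenases make 2-oxoglutarate in the cytosol (IDH1) and the mitochondria (IDH2). In the largest NTC peaks the signal per kb was 6336 and 5827 at IDH1, in NTC_1 and NTC_2, and 3279 to 4901 at IDH2. IDH1, on the minus strand of chr2 (209119795), had 12652 and 10780 in NTC_1 and NTC_2 from peaks of 1997 and 1850 bp, and no peak in NTC_3. METTL3-KO had 1937 and 941, and METTL14-KO and WTAP-KO none. The groups overlapped because of NTC_3, and no contrast against NTC passed the test (limma, adjusted p = 0.951, 0.0859 and 0.0868), whereas without NTC_3 all 3 did (0.00142, 1.57e-05 and 1.56e-05). The NTC_1 peak was close to the widest that any list holds, and whether a wider peak was left out of the NTC_3 list was not tested. At the main starts METTL3-KO had 751 and 941, in 2 peaks on either side of the start, and the value of 1937 came from a distant start at 209130798, beside the start of PIKFYVE, where no NTC list had a peak. The peaks at the main starts also lay near the start of the lncRNA IDH1-AS1 on the other strand, and the mark of the 2 genes cannot be told apart.

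IDH2, on the minus strand of chr15 (90645700), had 2478, 1970 and 2505 in NTC, 355 in METTL3-KO_1 and no peak in the other 5 KO libraries. All KO values lay below NTC (limma, adjusted p = 0.00553 in METTL3-KO, 9.55e-04 in METTL14-KO and 9.08e-04 in WTAP-KO). The peaks lay near the start of the lncRNA IDH2-DT on the other strand, and the mark of the 2 genes cannot be told apart.

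ASXL1, on the plus strand of chr20, stood apart by its level. Its mean NTC signal of 27065 ± 2701 (SD, n = 3) was at or above that of 99.5% of genes marked in NTC. The signals were 27624, 24128 and 29443 in NTC, 7282 and 4967 in METTL3-KO, 4337 and 2721 in METTL14-KO, and 1158 and 1226 in WTAP-KO. No group overlapped another. The means were 22.6%, 13.0% and 4.40% of NTC, or differences of −2.16 ± 0.27 (limma, SE, adjusted p = 3.61e-04), −2.96 ± 0.27 (6.15e-05) and −4.47 ± 0.27 (6.72e-06) on the log2 scale. METTL3-KO was higher than METTL14-KO and WTAP-KO averaged by 1.55 ± 0.25 (adjusted p = 0.00493).

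The ASXL1 fall was close to that of the genes marked in all libraries. After centring on the 665 genes marked in all 9 libraries, ASXL1 included, the difference was −0.38 in METTL3-KO (limma, adjusted p = 0.121), 0.10 in METTL14-KO (0.651) and −0.79 ± 0.19 in WTAP-KO (0.00760), so the METTL14-KO direction turned and the WTAP-KO call alone held. Division by each library's step also took METTL3-KO (−1.33, adjusted p = 0.0738) and METTL14-KO (−1.42, adjusted p = 0.0536) past the threshold of 0.05. In the decile of genes with the highest NTC signal, to which ASXL1 belongs, 97.3% kept a peak in METTL3-KO, 78.1% in METTL14-KO and 65.6% in WTAP-KO.

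The largest ASXL1 peak was also narrower in the KO libraries. Its width was 1664 to 1740 bp in NTC, 1229 and 1261 bp in METTL3-KO, 921 and 746 bp in METTL14-KO, and 362 and 339 bp in WTAP-KO. The mean over KO libraries was 810 bp against 1702 bp in NTC (exact permutation test, two-sided, 3 against 6 libraries, p = 0.0238, the smallest this design allows, and 0.0238 after adjustment over 2 such tests). Per kb of peak, the signal was 15902 ± 1496 (SD, n = 3) in NTC, 4932 ± 1405 (n = 2) in METTL3-KO, 4178 ± 750 in METTL14-KO and 3408 ± 294 in WTAP-KO. The KO groups thus lay closer to each other in signal per kb, where METTL3-KO and METTL14-KO overlapped, than in width, where none did. In WTAP-KO the peak covered only positions −714 to −350 relative to the canonical start. In METTL14-KO_1 a separate peak of 502 lay further upstream, in a stretch that the METTL3-KO_1 and NTC peaks covered whole. A second peak, 577 to 1909 bp downstream of the start, had signals of 12293, 9641 and 12683 in NTC, was present in 8 of 9 libraries, not in METTL14-KO_2, and reached 125 and 314 in WTAP-KO. Width and signal come from the same peak calls and are not independent measures.

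**Figure D4:**
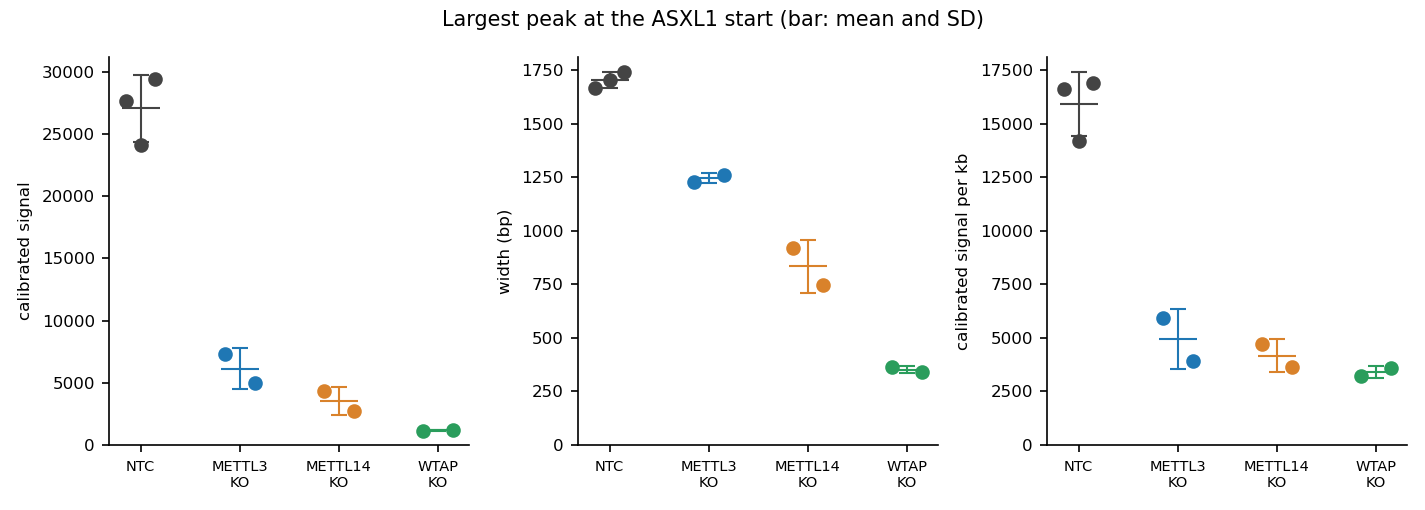
Largest peak at the ASXL1 start in each library as calibrated signal (left), width in bp (middle) and calibrated signal per kb (right), with the group mean and SD. Width steps down from 1664 to 1740 bp in NTC to 339 and 362 bp in WTAP-KO, while signal per kb in the KO groups lies between 3200 and 5925.

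METTL3-KO was called higher than the other knockouts at 2 of the 10 genes in the main fit. In the direct contrast of METTL3-KO with METTL14-KO and WTAP-KO averaged, DNMT1 (limma, adjusted p = 4.06e-05) and ASXL1 were called higher, 2 of 10 genes against 29.5% of all genes tested. The ASXL1 call held neither after centring nor after division by the step, and the size at DNMT1 depends on the pseudocount. DNMT3B (adjusted p = 0.0518), IDH1 (0.164), IDH2 (0.198) and TET2 (0.398) had larger fitted differences than ASXL1 and did not pass. DNMT1, DNMT3A, IDH1, IDH2 and TET2 had a peak in at least 1 METTL3-KO library and none in METTL14-KO. Of all protein-coding genes, 34.6 and 33.5% were marked in the METTL3-KO libraries and 21.1 and 13.2% in METTL14-KO. The share of all genes with this pattern was not counted. At TET1, TET3 and UHRF1 the 3 KO groups were alike in having no peak within 1 kb.

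Patterns of peak and no peak over the 9 libraries were shared widely. TET1, TET3 and UHRF1, with peaks in NTC alone, shared theirs with 3892 other protein-coding genes, DNMT1 with 1175, ASXL1 with 664, DNMT3A and IDH2 with 582, DNMT3B with 135, IDH1 with 85 and TET2 with 3. Within the same pattern, those near DNMT1 by mean absolute log2 difference over the 9 libraries included CCDC181 (0.11) and PSAP (0.12). Those nearest ASXL1 were NEU1 (0.12), HLA-C and SLC44A4 (0.21 each), those nearest DNMT3A were XRCC2 (0.06), MAD1L1 and RALB (0.07 each), and those nearest DNMT3B were SLC38A10 (0.60), UPF3A (0.67) and KCTD2 (0.68).

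The other genes of the same pathways were counted in 6 lists. Over all 12037 genes tested, 73% were lower and 14.3% higher in the mean of the KO groups (limma, adjusted p under 0.05). The lists held 5 to 11 tested genes each, and no list was tested against all genes. Of 8 methyl-CpG readers, the proteins that bind methylated DNA, 7 were lower in the mean of the KO groups and 1 higher, beside 73% and 14.3% of all genes. The largest fall was at ZBTB4, a zinc finger reader of methylated CpG, with 11083, 14631 and 15867 in NTC and 287 in METTL3-KO_1 as the single KO peak. The gene that was higher was MBD4, a glycosylase for mismatches at CpG, with no NTC peak, 4805 and 4823 in METTL3-KO and 1100 in METTL14-KO_1. Of 12 other chromatin genes mutated in myeloid leukemia, 11 were tested and 10 were lower, beside 73% of all genes, the largest fall being at the acetyltransferase CREBBP (7026, 7470 and 8448 in NTC, no KO peak), and none of the 12 was marked in METTL14-KO or WTAP-KO, where 11.4 to 21.1% of all genes were.

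Among partners of the DNA methyltransferases, 5 of 6 were tested, and 1 was lower and 1 higher, beside 73% and 14.3% of all genes. Whether this list differs from all genes was not tested. USP7 was lower (8569, 8597 and 9936 in NTC, no KO peak). HELLS, a remodeler needed for methylation, was higher, with 480 and 688 in METTL3-KO alone. UHRF2, the paralog of UHRF1, had no peak in NTC, METTL3-KO or METTL14-KO_1, 20402 in METTL14-KO_2, and 17553 and 19685 in WTAP-KO. It was called higher in WTAP-KO, as were 6.81% of all genes (limma, adjusted p = 0.0117), but not for the mean of the KO groups (0.0550). Whether wider UHRF2 peaks were left out of the lists that hold none was not tested. In the list of repair factors and TET partners 4 of 5 tested genes were lower and 1 higher, again near 73% and 14.3%, the largest fall being at CXXC5, a CpG-binding zinc finger gene (7698 to 11242 in NTC, no KO peak). The exception was APEX1, the abasic site endonuclease, with no NTC peak and a peak in all 6 KO libraries (556 to 5067). Of 8 tested genes for methyl donors and 2-oxoglutarate metabolism 6 were lower and 2 higher, close to the shares over all genes. Among the higher was MAT2B, a regulatory subunit of the same enzyme as MAT2A, with no NTC peak and a peak in all 6 KO libraries (125 to 7998). The largest fall was at MAT2A, which makes S-adenosylmethionine (11535 to 15702 in NTC, 1802 and 1050 in METTL3-KO, and 582 in WTAP-KO_1 as its single other KO peak).

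AHCY, which clears S-adenosylhomocysteine, was the one gene of these lists beside ASXL1 with a peak in all 9 libraries. Its signals were 27701, 30260 and 29503 in NTC, 10996 and 6425 in METTL3-KO, 7196 and 3029 in METTL14-KO, and 4757 and 5371 in WTAP-KO, and all KO libraries lay below NTC. In the ASXL and BAP1 list 4 of 5 tested genes were lower and 1 higher, close to the shares over all genes, with the largest fall at FOXK2 (4454 to 5775 in NTC, 979 in METTL3-KO_1 as its single KO peak). ASXL2, the paralog of ASXL1, was higher, with no NTC peak, 6605 and 5765 in METTL3-KO, 1635 and 1560 in METTL14-KO, and 1264 in WTAP-KO_2. The 6 list members called higher in this contrast had no NTC peak, and whether wider peaks were left out of the NTC lists there was not tested. Across the 6 lists the median difference ran from −6.31 for the leukemia chromatin genes to 1.07 for the DNA methyltransferase partners, beside −5.30 over all genes tested.

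**Figure D5:**
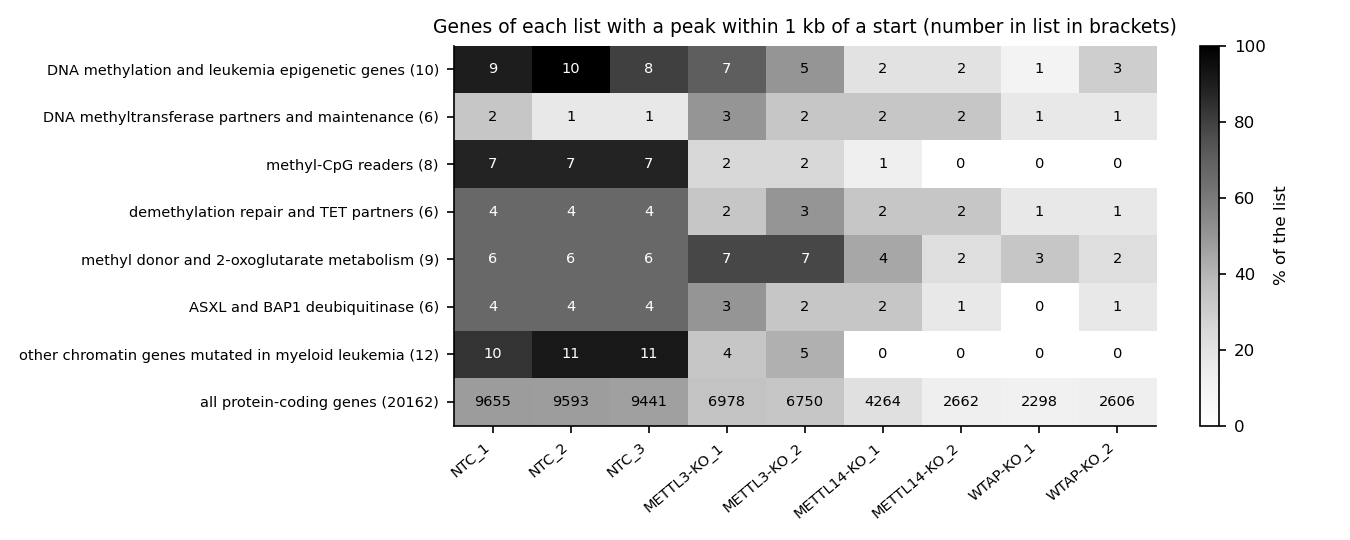
Number of genes with a peak within 1 kb of a start for the 10 genes, the 6 related lists and all protein-coding genes, per library, shaded by the percentage of the list. The leukemia chromatin genes go from 10 or 11 of 12 in NTC to 0 in METTL14-KO and WTAP-KO, and the methyl donor list from 6 of 9 in NTC to 7 of 9 in METTL3-KO.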

How the data were processed

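H3K4me3 CUT&RUN libraries of HEL cells (NTC, n = 3; METTL3-KO, METTL14-KO and WTAP-KO, n = 2 each) were grouped and numbered by their labels. Per the study's methods, read pairs were aligned by the authors against hg19 and, for the spike-in, sacCer3 (yeast), duplicates were removed, and the spike-in was used for calibration. The submitters' processing notes name Bowtie and Picard, with no version. The authors deposited 1 peak list per library, not a pooled one, with a calibrated coverage signal for each peak. Count tests were not used because this signal holds no read counts, and depth is unknown. All 25 chromosome names of the peaks were found in the hg19 reference, and 0 peaks ended past a chromosome. Starts were read as counted from 0, and coordinates are given from 1.

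The signal of a gene was that of its largest peak within 1 kb (or 5 kb) of any GENCODE start, and 0 without a peak. Values were put on the log2(signal + 30.1) scale, where 30.1 is the lowest signal in the data, and fitted with limma 3.58.1 (R 4.3.3, trend option) in 1 model over all 9 libraries and the 12037 protein-coding genes with a peak in at least 2 libraries, with Benjamini-Hochberg adjustment over all of them at 0.05. Changes of weak genes are understated on that scale. Peak widths were compared by exact permutation tests (scipy 1.17.1). The model was first tested on simulated data. Tables and plots were made with pandas 2.3.3, numpy 2.4.6 and matplotlib 3.10.9 under Python 3.11.15.

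The 10 genes, the related lists and the tests were chosen with earlier results of these data known. All 10 genes are named, and from each related list the genes with a peak in all 9 libraries and the called gene with the largest fall for the mean of the KO groups. Genes called higher were named after their values were seen. For each of the 10 genes, up to 3 genes of the same pattern were ranked by mean absolute log2 difference. A few items that these rules name are not reported here. Alternatives were 0.1 and 10 times the pseudocount, genes with a peak in at least 1 or all 9 libraries, the 5 kb window, coding transcripts only, the sum of peaks, centring, division by the step (the value of which low signals were whole multiples within 0.05 of a step), peaks above the NTC median of 2095, the groups in the fit, no trend, the replicate block and leaving out each library. Same-numbered libraries did not deviate together: the correlation of their deviations from group means was −0.058 to 0.095 over 12 pairs. In KO groups of 2 libraries the deviations mirror each other. Pairs of libraries from different KO groups therefore repeat their values, and not all 12 pairs are separate.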

Additional observations from a re-analysis of the deposited data

Results flagged for a closer look

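The fall of the mark at 2 of the 10 genes differed between knockouts, by a test of the difference itself. DNMT1 was higher in METTL3-KO than in METTL14-KO and WTAP-KO averaged by 4.90 on the log2(signal + 30.1) scale (limma, SE 0.27, adjusted p = 4.06e-05). Its signals were 705 and 1069 in METTL3-KO, and all 4 libraries of the other knockouts had no peak, so the size depends on the pseudocount. ASXL1 was higher in METTL3-KO by 1.55 (SE 0.25, adjusted p = 0.00493), with 4967 and 7282 against 1158 to 4337. After centring on genes marked in all 9 libraries the ASXL1 difference was −0.03 (adjusted p = 0.904), and after division by the step it was 0.73 (0.417).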

How the results depend on the processing

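Of 1029 re-computed differences of the 10 genes over all settings, 948 kept their direction and their side of the threshold, 36 lost a call, 21 gained one and 24 turned direction, and none of the causes was tested beyond the settings' own construction. Restricting the test to genes with a peak in all 9 libraries left 623, 564, 608 and 633 genes called in the mean of the KO groups, METTL3-KO, METTL14-KO and WTAP-KO, and 587 in METTL3-KO against the other knockouts, with 1 of the 10 genes, ASXL1, called in each, because fewer genes were tested. With only the peaks that reached the NTC median, 8 of the 10 genes were tested, TET1 and UHRF1 dropping out. Those called lower were 4 in METTL3-KO, 5 in METTL14-KO and 5 in WTAP-KO, beside 5792, 5902 and 5923 of all 8692 genes tested. Genes called in either direction were 6117 in WTAP-KO and 1126 for METTL3-KO against the other knockouts. The mean number of the 10 genes marked was 7 in NTC, 2.5 in METTL3-KO, 1 in METTL14-KO and 0 in WTAP-KO. The 5 kb window gave means of 3 in METTL14-KO and 3.5 in WTAP-KO. METTL3-KO against the other knockouts gave 6151 genes after centring (3740 lower, 2411 higher) against 3622 (70 lower, 3552 higher), 2082 after division by the step. Of the 10 genes, centring called 1 higher, DNMT1, and 1 lower, TET1, and division by the step called 1 higher. TET1 had no peak in any KO library, so its call came only from the values that centring subtracted from each library. Centring shifts every value without a peak in this way, and the centred counts and differences include that shift. Leaving out single libraries gave 2389 to 4378 genes, the lowest without METTL3-KO_1, and 2 to 4 of the 10 genes, the highest without METTL3-KO_2.

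Centring turned TET2 for the mean of the KO groups (1.92), METTL14-KO (0.075) and WTAP-KO (2.29), DNMT3B (1.77) and IDH1 (1.57) in METTL3-KO, ASXL1 in METTL14-KO (0.10), and DNMT3A (−0.41) and ASXL1 (−0.033) in METTL3-KO against the other knockouts. In METTL3-KO, DNMT3B was 0.82 after division by the step, 0.0096 with the stronger peaks, and −0.60 to 0.57 on leaving out libraries. IDH1 was 0.86 with 0.1 times the pseudocount, 1.23 with summed peaks, 0.66 after division by the step, and −3.08 to 1.28 on leaving out libraries. TET2 was −0.48 with the stronger peaks and −0.057 to 4.59 on leaving out libraries, the highest and a call (limma, adjusted p = 0.0348) without NTC_2. On leaving out libraries TET2 ran from −2.42 to 2.07 for the mean of the KO groups and from −2.99 to 1.61 in WTAP-KO. The DNMT3B call for the mean of the KO groups (adjusted p = 0.0400) was lost on leaving out any of 7 libraries (0.0548 to 0.107), all but METTL14-KO_1 and WTAP-KO_2. The UHRF1 call in WTAP-KO was lost after centring (0.0576), and the IDH2 calls in all 3 knockouts with the stronger peaks (0.0852 to 0.0913), which also left DNMT1 with no peak to compare between METTL3-KO and the other knockouts. Without METTL3-KO_2, DNMT3A (4.89e-04) and IDH2 (5.24e-05) were called higher in METTL3-KO than in the other knockouts.

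By the correlation of their deviations, same-numbered libraries showed no pairing. With the replicate block, which leaves NTC_3 without a partner, 10002, 8756, 9329, 9414 and 2746 genes were called. Without it the counts were 10499, 9024, 9290, 9206 and 3622. With the block, 8 of the 10 genes were lower in each knockout contrast, beside 7065 (METTL3-KO), 8409 (METTL14-KO) and 8665 (WTAP-KO) of all 12037 genes. In METTL3-KO against the others, 3 of the 10 genes were higher, beside 2684 of all genes. The block changed which of the 10 genes these were. IDH1 gained a call in all 5 contrasts, and DNMT3B lost its calls for the mean of the KO groups, METTL14-KO and WTAP-KO (limma, adjusted p = 0.156, 0.135 and 0.0894). DNMT3B in METTL3-KO was 0.083. The lists carry no depth, so a gene without a peak may hold signal below the calling threshold.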
